A study of Mus musculus with 4 samples.

Results

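Cadherins, catenins and plakophilin 2 form the core of the contacts that hold cells to each other, and their RNAs are described here in the protrusions and the bodies of NIH/3T3 cells, a mouse fibroblast line. The members are Cdh2, Cdh11, Ctnna1, Ctnnb1, Ctnnd1, Jup and Pkp2, and their probe sets are all those to which the platform annotation gives exactly 1 gene symbol from these 7. This rule took 19 of the 45101 probe sets on the array, for 7 of 18194 genes, and 13 of the 19, from 6 of the 7 genes, were bright enough to be tested. In the study, cells starved of serum were plated for 2 h on porous membranes coated with fibronectin, were stimulated from below with lysophosphatidic acid (LPA), a phospholipid that induces protrusion, at 150 ng/ml for 1 h, and were fixed for 10 min. The protrusions that had grown through the pores (pseudopodia) were taken from its lower face and the cell bodies from its upper face. There were 2 pseudopodia arrays and 2 cell body arrays, numbered 1 and 2, all from cells that had received LPA, so cells without LPA are not part of the comparison. The samples are called independent, but how the cultures were separated is not given, and the p-values therefore measure only the spread between these samples, which may be technical. The comparison asks how an RNA is distributed between protrusions and cell bodies.

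A cadherin spans the plasma membrane and binds a cadherin on the neighbouring cell. Its cytoplasmic tail holds beta-catenin (Ctnnb1) or plakoglobin (Jup), these hold alpha-catenin (Ctnna1), and alpha-catenin binds actin filaments, while p120-catenin (Ctnnd1) binds the tail nearer the membrane and keeps the cadherin at the surface. Fibroblasts are known for N-cadherin (Cdh2) and cadherin-11 (Cdh11) in place of epithelial E-cadherin. Plakophilin 2 (Pkp2) belongs to the same family of armadillo repeat proteins as p120-catenin and is a plaque protein of desmosomes. Beta-catenin that is not bound to cadherin also carries the Wnt signal to the nucleus.

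Levels are MAS5 signals as deposited, on a linear scale with every array scaled to the same trimmed mean of 250.0. A difference is pseudopodia minus cell body on the log2(signal + 32) scale after scaling to a trimmed mean of 500, so the fold changes of dim probe sets are understated, and it is given with the SE of the limma fit and n = 2 arrays per fraction. Adjusted p is Benjamini-Hochberg over the 22519 probe sets whose mean reached the filter, a deposited signal of about 27.8, and a probe set is called at an adjusted p under 0.05. The fit called 990 probe sets (4.4%), 243 higher (1.08%) and 747 lower (3.32%) in pseudopodia, and scaling on the hybridization controls moved that split to 54 higher and 1510 lower. The median difference of all tested probe sets was -0.03, and -0.32 on the hybridization controls. Differences are relative to the total signal of a fraction, so less of an RNA and more of the other RNAs in that fraction cannot be told apart. The 3' to 5' signal ratio of the beta-actin control, a sign of RNA integrity, was higher in the protrusions, 1.14 times in the replicate 1 pair and 1.81 times in the replicate 2 pair, while that of the Gapdh control was 1.05 and 1.06 times as high, and their part in the results below was not tested. Of 11 fibroblast markers, 9 passed the filter, and Thy1 and Postn did not. Of these 9, 7 (Col1a1, Col1a2, Col3a1, Fn1, Sparc, S100a4 and Vim) read 10451 or more in every array on their brightest probe sets. The others were dimmer, Pdgfrb at 2528.2 to 4285.9 and Pdgfra at 470.3 to 1049.9. Pdgfra stood at -0.92 ± 0.21 and did not pass (adjusted p = 0.0553 by limma). The summed fibroblast marker signal, each marker by its brightest probe set, was 138990.4 and 142951.4 in cell bodies against 130579.7 and 139111.2 in pseudopodia. On dimmer probe sets 3 of these markers were called lower in pseudopodia by limma. They were Fn1 on 1437218_at (-2.56, adjusted p = 0.0109), Col1a2 on 1423110_at (-0.98, adjusted p = 0.0245) and Pdgfrb on 1417148_at (-1.29, adjusted p = 0.0242). Of 12 epithelial markers 4 passed (Cdh1, Epcam, Krt8 and Krt14). The signals of all 12 summed to 2668.9 to 3006.3 in cell bodies and 2480.3 to 2897.2 in pseudopodia. Most of this was Krt14, at 1769.6 to 2198.7, while Krt8 lay between 354.5 and 442.4 and Epcam between 154.9 and 333.5. The probes of these Krt14 and Epcam probe sets (ending _x_at) may also bind other transcripts, and another Epcam probe set read 1.5 to 22.2. The epithelial cadherin Cdh1 lay between 61.6 and 98.4. Of 8 endothelial, 7 blood and 6 muscle markers 1, 3 and 2 passed, Cdh5, Pecam1, Ptprc and Myod1 were below the filter, no marker was listed at 0, and no marker of these 5 lists was called on its brightest probe set. The part of these other markers in the results was not tested.

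**Figure D1:**
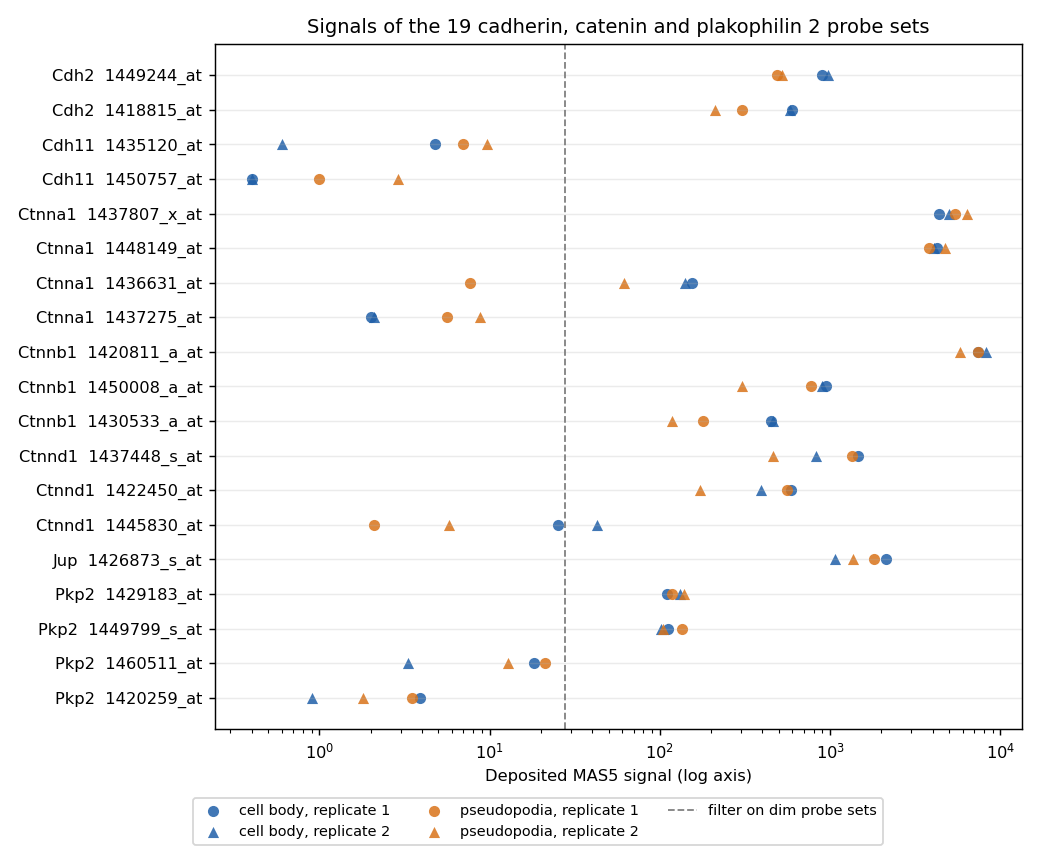
Deposited MAS5 signal (log axis) of each of the 19 member probe sets on the 4 arrays, with circles for replicate 1 and triangles for replicate 2, blue for cell bodies and orange for pseudopodia. The dashed line is the filter, about 27.8; both Cdh11 probe sets lie below it, and on both Cdh2 probe sets the pseudopodia signals lie left of the cell body signals.

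N-cadherin RNA was lower in pseudopodia than in cell bodies on both probe sets that measure it, by about 2 times, and 1 of the 2 passed the test. On the brighter probe set, 1449244_at, the cell bodies gave Cdh2 signals of 898.4 and 975.4, and the pseudopodia 485.1 and 521.6. The fractions did not overlap, and the replicate arrays of each fraction lay close together. The difference was -0.88 ± 0.20, 1.83-fold, with -0.87 in the replicate 1 pair and -0.88 in the replicate 2 pair, and it missed the threshold (adjusted p = 0.0548 by limma). On the other probe set, 1418815_at, the signals were 594.3 and 581.7 in cell bodies against 305.4 and 209.6 in pseudopodia. Again both pseudopodia arrays lay below both cell body arrays, with the replicate 2 protrusions lowest. Here Cdh2 fell by 2.24-fold (-1.17 ± 0.25, adjusted p = 0.0458 by limma). With the replicate number as a block, both Cdh2 probe sets were called (adjusted p = 0.0036 and 0.00116), and on the hybridization controls as well. The call on 1418815_at ended after median centring (adjusted p = 0.0588), quantile normalization (0.0646), with a pseudocount of 1 (0.0561), without the filter (0.0862), without the variance trend (0.109), and when cell body replicate 1 (0.329) or cell body replicate 2 (0.286) was left out, with a negative difference each time. Over the 4 scalings the Cdh2 differences lay between -1.48 and -0.79.

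Cadherin-11, which marks many mesenchymal cells, was hardly seen on these arrays. Its probe set 1435120_at gave 4.8 and 0.6 in cell bodies against 7.0 and 9.7 in pseudopodia, and 1450757_at gave 0.4 and 0.4 against 1.0 and 2.9. All 8 values lay below the filter, so neither probe set was tested and no fold is given. The order of the fractions was the reverse of that of Cdh2, at signals that MAS5, which subtracts mismatch probes, does not measure well.

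Beta-catenin RNA was measured by 3 probe sets, all with a negative difference that grew from the brightest to the dimmest, and only the dimmest passed the test. The ending _a_at marks probes common to several transcripts of the gene. The brightest, 1420811_a_at, stood at 7374.7 and 8195.8 in cell bodies against 7420.5 and 5819.7 in pseudopodia. The fractions overlapped, because replicate 1 was level while the replicate 2 protrusions were lower. The difference was -0.24 ± 0.17, with a 95% interval of -0.64 to 0.16 (adjusted p = 0.462 by limma). It moved to -0.07 without pseudopodia replicate 2, to -0.42 without pseudopodia replicate 1, to -0.50 after quantile normalization and to -0.57 on the hybridization controls, and was called in none of these. On 1450008_a_at, Ctnnb1 read 947.5 and 892.2 in cell bodies against 767.2 and 303.1 in pseudopodia. The arrays did not overlap, but the pairs stood at -0.30 and -1.51, so that most of the difference came from replicate 2. This probe set did not pass (-0.90 ± 0.39, adjusted p = 0.227 by limma, and 0.0131 with the replicate number as a block). Without pseudopodia replicate 1 it stood at -1.55, and without pseudopodia replicate 2 at -0.26, each from 1 pseudopodia array. The dimmest of the 3, 1430533_a_at, gave 451.8 and 458.5 in cell bodies against 178.0 and 117.4 in pseudopodia. The cell body arrays were nearly equal and both protrusion arrays far below them. On this probe set Ctnnb1 fell by 2.93-fold (-1.55 ± 0.26, adjusted p = 0.0276 by limma), the lowest adjusted p among the members. The call held under every scaling tried, between -1.86 and -1.41 with adjusted p up to 0.0352, and ended without the filter on dim probe sets (adjusted p = 0.0599), without the variance trend (0.0774), and without cell body replicate 1 (0.269) or cell body replicate 2 (0.227).

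For alpha-catenin, the link from beta-catenin to actin, no probe set passed the test, and of the 3 tested the 2 bright ones stood above 0 and the dim one below. On 1437807_x_at, Ctnna1 read 4380.0 and 4970.3 in cell bodies against 5405.8 and 6393.4 in pseudopodia. The fractions did not overlap, with the protrusions higher. The difference of 0.33 ± 0.17 was the highest among the members and did not pass (95% interval -0.06 to 0.72, adjusted p = 0.297 by limma), and on the hybridization controls it was -4.9e-05. The ending _x_at marks a probe set whose probes may also bind other transcripts. On 1448149_at the signals were 4225.3 and 4070.0 in cell bodies against 3805.2 and 4709.3 in pseudopodia. The fractions overlapped, the pairs differed in sign, and the difference was 0.03 ± 0.17 (95% interval -0.38 to 0.43, adjusted p = 0.945 by limma). A much dimmer probe set, 1436631_at, gave 153.3 and 139.8 in cell bodies against 7.7 and 61.2 in pseudopodia. Both protrusion arrays were lower, but they lay further from each other than the cell body arrays did. The pseudopodia mean of this probe set, 6.42 on the log2 scale, lay under the filter of 6.45. It was thus kept only through its cell body arrays. Its difference of -1.92 ± 0.52 was the lowest among the members and did not pass (adjusted p = 0.0815 by limma, and 0.0021 with the replicate number as a block). It stood at -2.84 in the replicate 1 pair and at -1.01 in the replicate 2 pair. Without pseudopodia replicate 1 it stood at -1.07 and without pseudopodia replicate 2 at -2.78, each from 1 pseudopodia array. It was called on the hybridization controls (-2.20, adjusted p = 0.031) and with a 4 times higher pseudocount (-1.15, adjusted p = 0.0489). The remaining Ctnna1 probe set, 1437275_at, lay below the filter in all arrays, at 2.0 to 8.8.

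p120-catenin RNA had no probe set that passed the test, and its replicates lay far apart. On 1437448_s_at, whose ending marks probes shared by several transcripts, Ctnnd1 read 1451.1 and 827.6 in cell bodies against 1335.5 and 460.2 in pseudopodia. Replicate 1 was the brighter in both fractions, and the fractions overlapped. The difference was -0.47 ± 0.48, from -0.12 in replicate 1 and -0.82 in replicate 2 (95% interval -1.58 to 0.64, adjusted p = 0.616 by limma). The probe set 1422450_at behaved alike, with 587.3 and 393.8 against 558.5 and 171.2. Its difference was -0.60 ± 0.49 (adjusted p = 0.523 by limma), and the pairs stood at -0.07 and -1.13. Without pseudopodia replicate 2 the differences of these probe sets were 0.28 and 0.21, and without pseudopodia replicate 1 they were -1.22 and -1.41 and both were called (adjusted p = 0.00228 and 0.000817). The dimmest probe set, 1445830_at, gave 25.1 and 42.7 in cell bodies against 2.1 and 5.8 in pseudopodia, and was left out by the filter.

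Plakoglobin, which can take the place of beta-catenin on the cadherin tail and also sits in desmosomes, had 1 probe set. Jup read 2118.5 and 1067.8 in cell bodies against 1803.1 and 1356.0 in pseudopodia on 1426873_s_at. The cell body arrays were the highest and the lowest of the 4, and the protrusion arrays lay between them. The difference was 0.05 ± 0.33 (adjusted p = 0.946 by limma), and its 95% interval of -0.70 to 0.81 does not exclude a change of 1.5-fold in either direction. The pairs stood at -0.23 and 0.34, and the sign turned on the hybridization controls (-0.27).

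Plakophilin 2 RNA had no probe set that passed the test, and the 2 tested had small differences. On 1429183_at, Pkp2 read 109.8 and 131.6 in cell bodies against 117.8 and 138.8 in pseudopodia, and on 1449799_s_at 112.0 and 102.0 against 135.3 and 104.5. The fractions overlapped on both. The differences were 0.08 ± 0.26 (95% interval -0.52 to 0.67) and 0.14 ± 0.26 (-0.48 to 0.75), with adjusted p = 0.894 and 0.811 by limma. Neither interval excludes a rise of 1.5-fold. Both turned negative on the hybridization controls (-0.22 and -0.15). The other 2 Pkp2 probe sets, 1460511_at at 3.3 to 21.1 and 1420259_at at 0.9 to 3.9, lay below the filter.

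**Figure D2:**
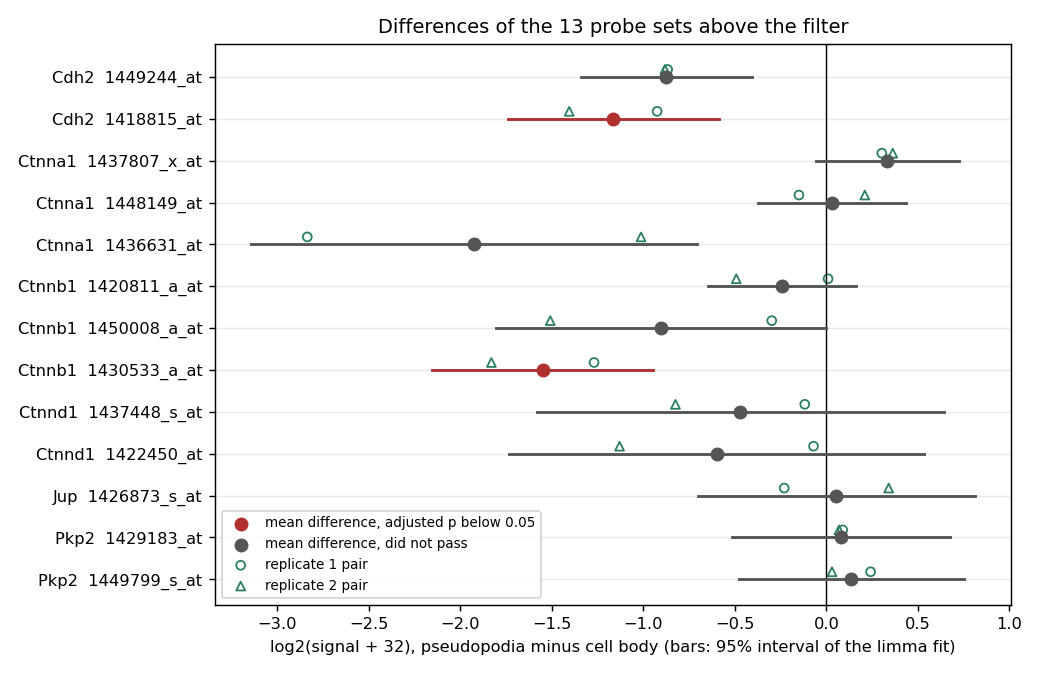
Pseudopodia minus cell body difference on the log2(signal + 32) scale for the 13 tested probe sets; filled points are means of 2 arrays per fraction with the 95% interval of the limma fit, and open symbols are the 2 same-numbered array pairs. The 2 red points, Cdh2 on 1418815_at (-1.17) and Ctnnb1 on 1430533_a_at (-1.55), passed the test, and the pairs of Ctnnd1 and of Ctnnb1 on 1450008_a_at lie far apart.

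Of the 13 tested probe sets, 2 were called lower (15.4%, where 3.32% of all tested probe sets were) and 0 higher, and none was higher at an unadjusted p under 0.05 either, while 5 were lower at that level, which 13.3% of all tested probe sets reached as lower and 8.66% as higher. In 6 of the 13 every array of one fraction lay beyond both of the other, 5 lower and 1 higher in pseudopodia, while 53% of all tested probe sets did so, 28.2% lower and 24.8% higher. With a minimum of 1.5-fold for every pairing of a protrusion with a cell body array, 4 of the 13 probe sets, from 3 genes, were lower and 0 higher, where 7.86% and 2.79% of all were. Among these 4, and in each count of 5 lower, is Ctnna1 on 1436631_at, which passed the filter only through its cell body arrays. The median of the 13 was -0.47, but probe sets of 1 gene are not separate members, and with each of the 6 genes taken by its brightest probe set the median was -0.09, beside 0.01 over 10962 genes, and no gene was called. With the replicate number as a block 5 probe sets were called lower (2 of Cdh2, 2 of Ctnnb1 and 1 of Ctnna1) and 0 higher, in a fit that called 11.3% of all tested probe sets lower and 6.84% higher. The count of 2 became 0 without cell body replicate 1 and without cell body replicate 2, fits of limma that called 0 of all probe sets although 2502 and 2959 had an unadjusted p under 0.05, 7 without pseudopodia replicate 1 (11.8% of all were then lower), and 4 without pseudopodia replicate 2 (9.56% of all). In such fits the remaining array of a fraction is assumed to vary like those of the other fraction. Whether one member's difference departs from another's was not tested.

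**Figure D3:**
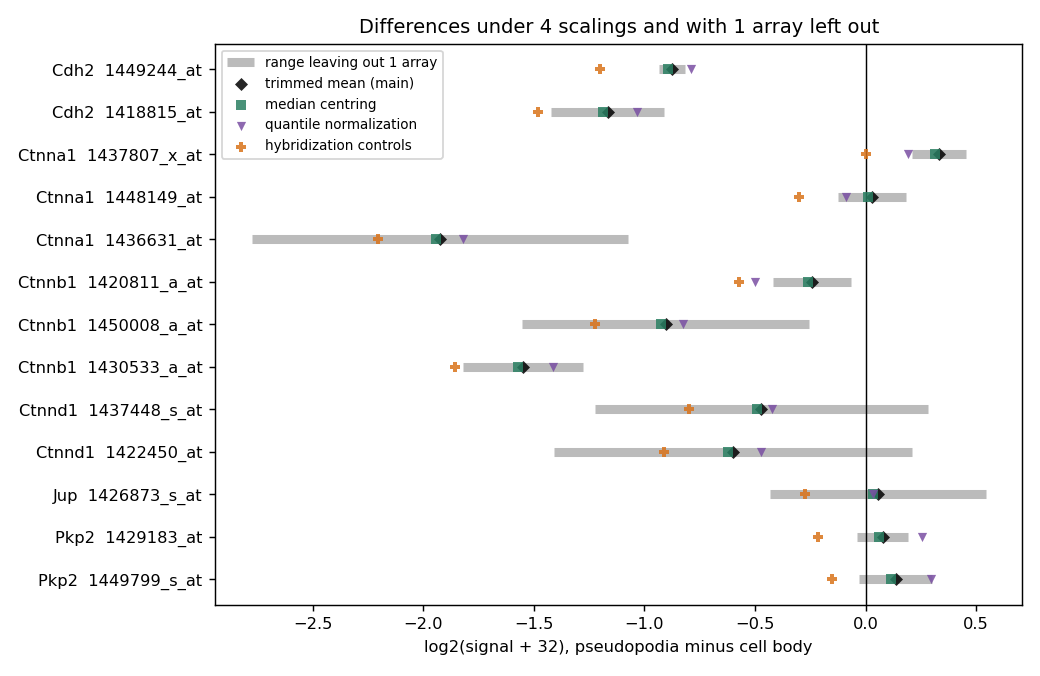
Differences of the 13 tested probe sets, on the log2(signal + 32) scale, under 4 scalings of the arrays (symbols) and as the range over the 4 fits that leave out 1 array (grey bars). Cdh2 and Ctnnb1 stay left of 0 throughout, Ctnnd1 crosses 0 when an array is left out, and Jup, Pkp2 and Ctnna1 on 1448149_at lie on both sides of it.

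Probe sets of the same gene were set against each other within each array, which removes the scaling apart from the pseudocount. Over 8390 pairs of a gene's brightest and another tested probe set, limma found 62 (0.739%) whose fraction difference departed from each other. Of the 7 member pairs, 0 passed and 2 had an unadjusted p under 0.05, a level that 12.5% of all pairs reached. These were Ctnnb1 1420811_a_at against 1430533_a_at, which departed by 1.31 ± 0.28 (adjusted p = 0.0908, and 0.0302 with the replicate number as a block, a fit that called 2.74% of all pairs), and Ctnna1 1437807_x_at against 1436631_at, by 2.26 ± 0.48 (adjusted p = 0.089, and 0.0209 with the block). Both Cdh2 probe sets departed by 0.29 ± 0.36 (adjusted p = 0.783), those of Ctnnd1 by 0.13 ± 0.32 (adjusted p = 0.897) and those of Pkp2 by -0.06 ± 0.40 (adjusted p = 0.964). The probe set 1436631_at passed the filter only through its cell body arrays. Where the probes lie along their transcripts was not analysed here.

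Most relatives of the members lay below the filter. Of 34 other cadherins, armadillo proteins and desmosome components listed, 32 were on the array and 10 passed the filter, each gene by its brightest probe set. Of these 10, 1 was called higher and 0 lower, and the median was 0.30, beside -0.03 over all tested probe sets. On the hybridization controls the median was -0.25 over 8 genes, beside -0.32 over all tested probe sets. Of all 10962 genes 1.3% were called higher and 2.52% lower. Cdh4, Cdh10 and Cdh22 passed the filter only through their pseudopodia arrays, and Cdh13 only through its cell body arrays. Without the filter the median was 0.04 over 32 genes, beside 0.02 over all probe sets. The gene called was Pkp4, a plakophilin-related protein of cell contacts, with 691.5 and 791.9 in cell bodies against 2882.9 and 3435.8 in pseudopodia on 1452209_at. Both protrusion arrays were far above both cell body arrays, by 2.06 ± 0.20 or 4.18-fold (adjusted p = 0.0121 by limma), and 1438677_at gave 1.54 ± 0.25 (adjusted p = 0.0276). Pkp4 belongs to the same armadillo subfamily as Ctnnd1 and Pkp2, whose differences were -0.47 and 0.08 on their brightest probe sets, and it was called higher under every scaling tried. Without the variance trend its call ended (adjusted p = 0.061), as it did without cell body replicate 1 (0.203) or cell body replicate 2 (0.171). The next by test, Arvcf, another p120 relative, stood at -0.58 ± 0.24 (adjusted p = 0.22), and at 0.06 on a dimmer probe set.

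Of 42 listed partners that link cadherins to actin or regulate them, 39 were on the array and 37 were tested, and 0 were called in either direction. At an unadjusted p under 0.05, 1 was higher and 4 were lower, where 9.77% and 11.2% of all genes were, so both counts lay near or under the background. With the replicate number as a block 1 was called higher and 3 lower, where 7.71% and 9.72% of all genes were. The median was -0.03, with 18 values above 0 and 19 below. The largest statistics were those of Ptprf, a receptor tyrosine phosphatase (-0.79 ± 0.22, adjusted p = 0.0897), and Vcl, vinculin, which binds alpha-catenin under tension (-0.57 ± 0.16, adjusted p = 0.0914).

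In the Wnt pathway, where beta-catenin is the messenger, 38 of 49 listed genes were tested, 3 were called lower and 1 higher, where 2.52% and 1.3% of all genes were, and the median was -0.14, beside 0.01 over all genes. Fzd1, a receptor for Wnt proteins, read 1244.5 and 1241.8 in cell bodies against 543.6 and 546.9 in pseudopodia. The replicates of a fraction nearly coincided, and Fzd1 fell by 2.24-fold (-1.17 ± 0.19, adjusted p = 0.0276 by limma). Fzd7, a receptor of the same family, fell by 2.54-fold (-1.35 ± 0.25, adjusted p = 0.0339), from 909.3 and 865.4 to 416.3 and 276.1. Siah1a, a ubiquitin ligase that can direct the degradation of beta-catenin, fell by 2.73-fold on its brightest probe set (-1.45 ± 0.25, adjusted p = 0.0297), while its dimmer ones stood at -0.15 and 0.03. Apc, which holds beta-catenin in the destruction complex and also binds microtubule ends, was higher, with 151.8 and 160.6 in cell bodies against 360.4 and 343.9 in pseudopodia. The rise was 2.14-fold (1.10 ± 0.22, adjusted p = 0.0422), and it was not called after median centring, on the hybridization controls, without the filter or without the variance trend. Without the variance trend Fzd1, Fzd7 and Siah1a were not called either (adjusted p = 0.0853, 0.0982 and 0.0774 by limma). Without the filter Fzd7 (0.065) and Siah1a (0.0646) were not called, while Fzd1 was (0.0479). With the replicate number as a block 7 genes of the list were called lower and 2 higher, beside the same 9.72% and 7.71% of all genes. The counts of this list ran from 0 to 8 lower and from 0 to 4 higher when 1 array was left out, with 0 in both directions without either cell body array, 8 lower and 4 higher without pseudopodia replicate 1 (9.83% and 6.46% of all genes), and 6 and 2 without pseudopodia replicate 2 (7.26% and 3.81% of all genes).

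**Figure D4:**
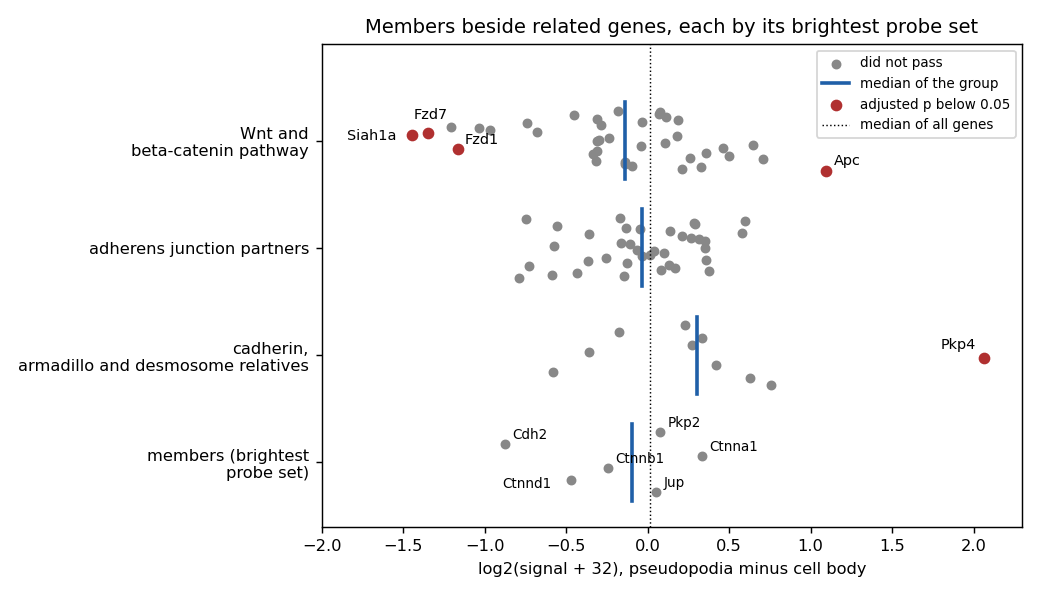
Pseudopodia minus cell body difference on the log2(signal + 32) scale of the 6 tested members and of 3 lists of related genes, each gene by its brightest probe set; blue bars are group medians and the dotted line is the median of all genes (0.01). Red points passed the test: Pkp4, Apc, Fzd1, Fzd7 and Siah1a, and none of the members on its brightest probe set.

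The genes whose profile over the 4 arrays lay nearest to a member were found by the Euclidean distance between centred log2 values. With 4 arrays such nearness is a description only. Nearest to Ctnna1 on 1437807_x_at were Mrpl24 and Mrpl49, of the mitochondrial ribosome, and Rab7, a GTPase of late endosomes, at distances of 0.0061, 0.017 and 0.0232, with differences of 0.34, 0.33 and 0.32. Nearest to its dim probe set 1436631_at were Fgd3, Atat1 and C130075A20Rik, at distances of 0.232, 0.316 and 0.351. Their differences were -1.82, -2.14 and -2.01, of which the last was called (adjusted p = 0.045).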

How the data were processed

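RNA of 2 pseudopodia and 2 cell body samples was measured on 4 Affymetrix Mouse430_2 arrays. Each deposited intensity is a MAS5 signal of 1 probe set on 1 array, per the submitters' processing notes; the version of MAS5 and its detection calls are not given in the sources used here. Per the file headers the arrays were scanned on 2 days, with same-numbered arrays of both fractions sharing a scan day and a project code. The replicate number therefore pairs them by scan day and project code, and over probe sets the replicate differences of the fractions correlated at r = 0.243. Each result was also fitted with the replicate number as a block. Such a fit has 1 residual degree of freedom per probe set, so its p-values rest mostly on the spread shared over probe sets.

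Gene names came from the platform annotation (34958 of 45101 probe sets with 1 symbol, 932 with several and 9211 unnamed here). Each array was rescaled so that its mean, with 2% trimmed at each end, was 500, and log2(signal + 32) was taken, a pseudocount of 16 in deposited units. Of the 45037 that are not controls, the brighter 22519 by mean log2 value were fitted with limma 3.58.1 in R 4.3.3 (eBayes with a variance trend, two-sided, Benjamini-Hochberg adjustment over 22519). The 4 arrays limit the precision, and permuting 2 against 2 arrays exactly can reach no p under 0.333, so single probe sets got no such test. The procedure was tested on simulated data. Alternatives were 3 other scalings, a pseudocount of 1 and a 4 times higher pseudocount, 2 other filters, no variance trend, the block, probe sets for a single transcript only, and leaving out each array. All members are described; of each related list, genes past the threshold (up to 8), or otherwise the 2 with the largest statistic, are named, with other genes marked where they were chosen later. The members and lists were chosen with earlier results of these data known.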

Additional observations from a re-analysis of the deposited data

How the results depend on the processing

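Of 172 values of member probe sets under the alternatives, 131 kept their direction and their side of the threshold, 16 passed it, 11 no longer passed it and 14 changed sign. The 2 member probe sets called lower became 1 after median centring, quantile normalization or with a pseudocount of 1. Of all probe sets 633, 553 and 508 were then called lower. The member count was 4 on the hybridization controls and with the 4 times higher pseudocount, where 1510 and 968 of all were lower. With the filter at the 75th percentile it was 3 of 10, where 521 of all were lower. Without the filter or the variance trend it was 0, beside 137 and 0 of all. With the replicate block the member count was 5, beside 11.3% of all tested probe sets. Over all probe sets, 243 higher became 54 on the hybridization controls, 161 with a pseudocount of 1, 39 without the filter, 0 without the variance trend and 1541 with the replicate block (0 to 1304 leaving out 1 array). The 747 lower became 1510, then 137, 0 and 2546 on the hybridization controls, without the filter, without the trend and with the block (0 to 2652). Without the trend limma still gave 4487 probe sets at an unadjusted p under 0.05. Same-gene member pairs called different numbered 2 of 7 with the replicate block, a fit that called 2.74% of all 8390 pairs.

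Among the related lists, Pkp4 was the only call in its list and the count became 0 without the variance trend (0 to 1 leaving out 1 array). Junction partners called lower numbered 2 on the hybridization controls and 3 with the block (0 to 2), and higher 1 with the block (0 to 1). For this list and those that follow, the same settings also moved the calls over the whole array. With the block 9.72% of all genes were called lower and 7.71% higher. On the hybridization controls 1510 of all probe sets were lower, where the main fit had 747. The list counts alone therefore do not show a change particular to a list. Wnt pathway genes called higher numbered 0 after median centring, on the hybridization controls, without the filter and without the trend, and 2 with the block (0 to 4). Those called lower numbered 5 on the hybridization controls and with the 4 times higher pseudocount, 1 without the filter, 0 without the trend and 7 with the block (0 to 8). In the wider cadherin superfamily, the 4 called lower became 1 without the filter and 0 without the trend (0 to 5), and 0 to 1 were called higher leaving out 1 array.

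Among the members, signs changed only for probe sets that were not called. On the hybridization controls Ctnna1 stood at -4.9e-05 and -0.30, Jup at -0.27 and Pkp2 at -0.22 and -0.15, and after quantile normalization Ctnna1 on 1448149_at stood at -0.089. Leaving out 1 array gave -0.12 to 0.18 for Ctnna1 on 1448149_at, -1.22 to 0.28 and -1.41 to 0.21 for Ctnnd1, -0.43 to 0.54 for Jup, and -0.036 to 0.19 and -0.028 to 0.30 for Pkp2. The negative values came without pseudopodia replicate 2 for Ctnna1, without pseudopodia replicate 1 or cell body replicate 2 for Jup, without pseudopodia replicate 2 or cell body replicate 1 for Pkp2 on 1429183_at, and without pseudopodia replicate 1 for Pkp2 on 1449799_s_at. The positive values of Ctnnd1 came without pseudopodia replicate 2. The causes were not tested. With probe sets for a single transcript only, no value could be had for Ctnnb1, Jup and the other probe sets ending in _a_at, _s_at or _x_at.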

Other observations

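The wider cadherin superfamily, a list added after the members' values had been seen, holds large atypical cadherins, protocadherins, calsyntenins, cadherin-related genes and the receptor kinase Ret, whose outer part has cadherin repeats. Of 28 genes listed, 27 were on the array and 10 passed the filter. Of these 10, 4 were called lower in pseudopodia and 0 higher, with a median of -0.54 beside 0.01 over all genes and 2.52% of all genes called lower. Fat1, a giant cadherin known from cell polarity and migration, read 1899.5 and 1843.9 in cell bodies against 1026.8 and 982.4 in pseudopodia, and fell by 0.89 on the log2 scale (adjusted p = 0.0429 by limma). Clstn1, a calsyntenin that links cargo to kinesin, read 2236.7 and 2179.4 against 941.4 and 968.8, and fell by 1.20 (adjusted p = 0.0242). Pcdh1, a protocadherin, read 856.3 and 837.9 against 391.6 and 289.4, and fell by 1.29 (adjusted p = 0.0314). Pcdh19, another protocadherin, read 3193.2 and 2306 against 1449.1 and 1038.6 on its brightest probe set, and fell by 1.13 (adjusted p = 0.0474), with its dimmer probe sets at -0.50 and -1.10. In each of these 4 genes both protrusion arrays lay below both cell body arrays on the brightest probe set, as in 28.2% of all tested probe sets. The 4 genes are named because they were called lower, so this adds no support. The counts became 0 without cell body replicate 1 or cell body replicate 2. The differences lay below 0 under every scaling tried, while the call on Pcdh19 ended after median centring (adjusted p = 0.0619).

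Other genes of the Wnt pathway were chosen after their values were seen. Fzd2, a receptor, read 4701.6 and 3245.8 in cell bodies against 2163.2 and 1309.1 in pseudopodia on its brightest probe set. This probe set did not pass (-1.21 ± 0.28, adjusted p = 0.0581 by limma). Another probe set of Fzd2 was called (-1.62, adjusted p = 0.0414) and the dimmest was not (-0.82, adjusted p = 0.0622). Wls, which carries Wnt proteins to the surface, stood at -0.97 on its brightest probe set (adjusted p = 0.0815), a dimmer one was called (-1.14, adjusted p = 0.032), and the dimmest tested was not (-0.51, adjusted p = 0.224).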
